A study of Mus musculus with 7 samples.

Results

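Complement is a cascade of plasma and tissue proteins that tags particles for uptake. In the classical pathway C1q, a hexamer of trimers built from the chains C1qa, C1qb and C1qc, binds a target and starts cleavage of C4 and then C3. Fragments of C3 on the target are taken up through complement receptor 3, whose alpha subunit CD11b is encoded by Itgam, and the small peptides C3a and C5a signal through the G protein-coupled receptors encoded by C3ar1 and C5ar1. Microglia are the main source of C1q in the brain, and in mouse amyloid models complement has been tied to microglial loss of synapses.

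The genes described are 9 complement components and receptors, chosen by name: C1qa, C1qb, C1qc, C3, C4b, Cfp, C3ar1, C5ar1 and Itgam. The probe annotation gave 1 probe set for each of 8 of them and listed none for C3, which was not analysed here. These are 8 of the 19505 named genes of the value table. Transcript levels came from 7 arrays, 1 for each sample of microglia, the macrophages that reside in brain tissue. All mice were 5xFAD animals on C57BL/6, a transgenic amyloid model in which neuronal transgenes drive human amyloid precursor protein and presenilin. Both genotypes carried these transgenes, and 3 arrays came from 5xFAD;B2m+/+ mice and 4 from 5xFAD;B2m–/– mice, called wildtype and knockout here. The product of B2m, beta-2-microglobulin, pairs with the heavy chains of MHC class I. Neither the age of the mice nor the kind of B2m allele is given in the sources used here, and the labels do not say whether each array came from a separate animal, so p-values measure only the spread between these samples, which may be technical.

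Cells had been sorted as viable, CD45 positive and CD11b positive. CD11b is the Itgam product, so the gate selected for Itgam-expressing cells. Of 12 microglial markers, 11 had a row, and all 11, among them P2ry12, Tmem119 and Sall1, lay above the 95th percentile of the array's 5222 negative control rows on every array. Their summed signal was 16.02 to 16.12 in wildtype against 16.04 to 16.10 in knockout arrays (log2). B2m was 13.39 to 13.42 in wildtype against 10.24 to 10.56 in knockout arrays, so the genotypes did not overlap for the targeted gene. Values throughout are log2 expression, differences are knockout minus wildtype, and the intervals are 95% confidence intervals of the fit.

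Promoter sequences are shown for C1qb and C1qc, which lie side by side in the C1q cluster, and for Cfp, whose signal differed most among the 8. On chromosome 4 the protein-coding genes run Ephb2, C1qb, C1qc, C1qa and Epha8, so the chains of C1q share a locus. Each sequence is the 250 bases before the annotated start in RefSeq (GRCm38.p6), written 5′ to 3′ on the gene's own strand, and capitals mark GAGGAA or its reverse complement TTCCTC, the core of a binding box of PU.1, the ETS factor of myeloid cells.
C1qb, chr4:136886201-136886450, minus strand: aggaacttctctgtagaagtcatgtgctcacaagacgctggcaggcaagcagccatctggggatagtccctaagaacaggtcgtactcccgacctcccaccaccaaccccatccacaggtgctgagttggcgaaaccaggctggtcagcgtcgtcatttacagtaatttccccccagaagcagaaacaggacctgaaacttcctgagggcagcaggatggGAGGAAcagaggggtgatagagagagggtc
C1qc, chr4:136892915-136893164, minus strand: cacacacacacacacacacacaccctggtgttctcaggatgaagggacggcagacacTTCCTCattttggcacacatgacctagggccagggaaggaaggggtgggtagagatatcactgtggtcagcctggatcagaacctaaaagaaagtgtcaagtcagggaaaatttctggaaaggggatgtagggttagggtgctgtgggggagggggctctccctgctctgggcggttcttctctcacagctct
Cfp, chrX:20931556-20931805, minus strand: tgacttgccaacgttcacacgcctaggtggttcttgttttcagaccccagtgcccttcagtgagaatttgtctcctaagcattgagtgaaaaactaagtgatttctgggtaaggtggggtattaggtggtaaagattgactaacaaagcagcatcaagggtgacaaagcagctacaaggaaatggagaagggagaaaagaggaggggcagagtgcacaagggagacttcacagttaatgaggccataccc

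The match in C1qb began 30 bases before the start and the match in C1qc 193 bases before it, while the Cfp window held none of these letters. Of the 9 genes, 7 had a sequence in the table, and C1qa and C4b had no entry. The motif was found in 3 of the 7, C1qb, C1qc and Itgam. It occurred in 23.3% of all 32851 promoters of this length. A match describes letters and not a bound site.

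None of the 8 complement genes passed the threshold between genotypes. In limma 0 of 8 had an adjusted p under 0.05, where 0.05% of the 10004 tested genes did, and 1 of 8, Cfp, had an unadjusted p under 0.05, where 11.9% of tested genes did. Differences lay above 0 in 4 genes and below 0 in 4. Their median was 9.8e-05, against -0.0055 over all tested genes. The groups did not overlap in 1 of the 8, where 10.9% of tested genes had no overlap. The share of these genes with either property was therefore near the background of the array.

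**Figure D1:**
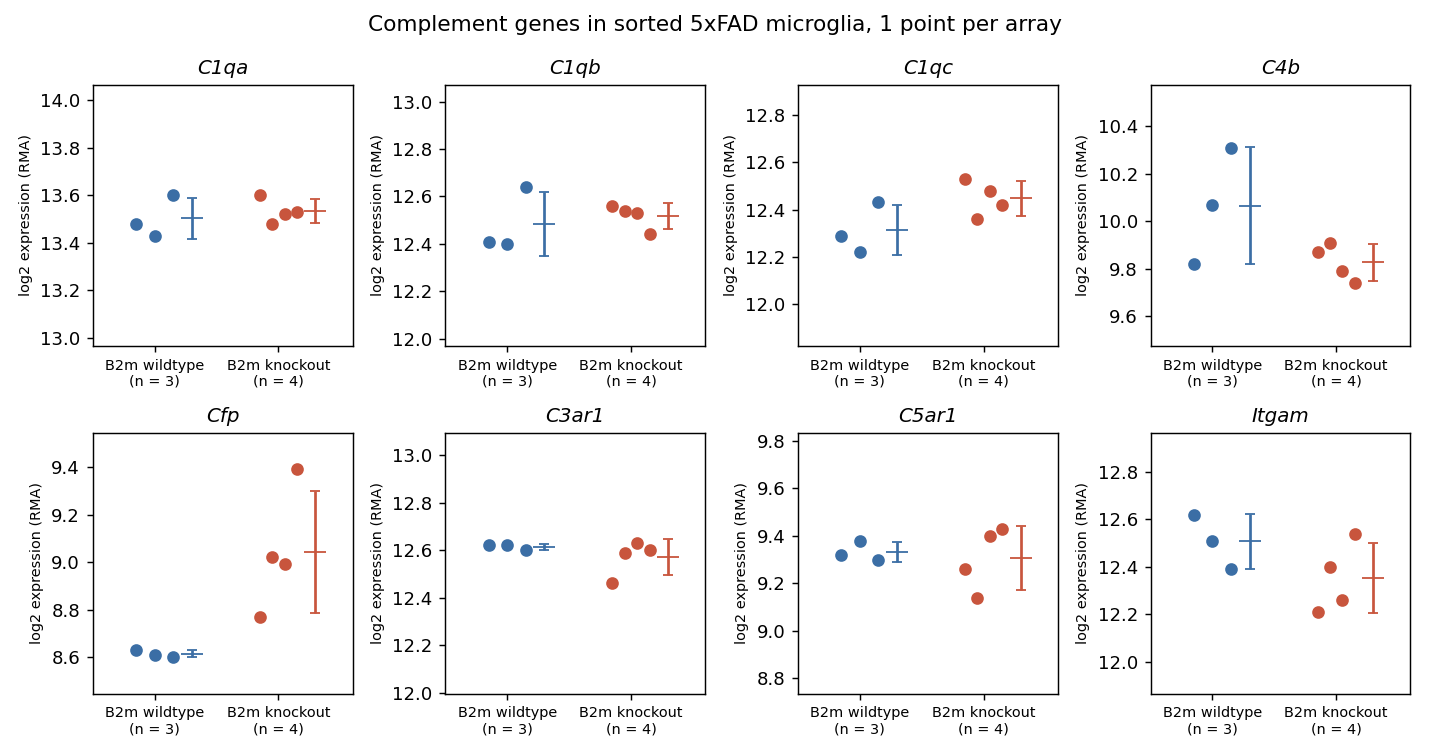
Log2 expression (RMA) of 8 complement genes, with 1 point per array, for 3 wildtype (blue) and 4 knockout (red) arrays. Crosses with bars give the mean ± SD, and each axis spans the same number of log2 units. Cfp was the gene whose groups did not overlap, with wildtype at 8.60 to 8.63 and knockout at 8.77 to 9.39.

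The recognition chains of the classical pathway were nearly level between genotypes. C1qa was 13.48, 13.43 and 13.60 in wildtype against 13.60, 13.48, 13.52 and 13.53 in the knockout arrays. The knockout values lay inside the wildtype range. The difference was 0.026 (SE 0.095, interval -0.18 to 0.24, limma adjusted p = 0.936), so on the linear scale the interval ran from 0.881 to 1.18 times wildtype. All C1qa values lay at the 99.9th percentile of the negative controls.

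C1qb was 12.41, 12.40 and 12.64 in wildtype against 12.56, 12.54, 12.53 and 12.44 in knockout arrays. Wildtype replicates 1 and 2 were the lowest of the 7 arrays and wildtype replicate 3 the highest, with every knockout array between them. The difference was 0.031 (SE 0.10, interval -0.19 to 0.26, limma adjusted p = 0.931). Its sign and that of C1qa were not stable. Without wildtype replicate 2 the C1qa difference was -0.012 and the C1qb difference -0.011, and repeated quantile normalization gave -0.015 for C1qb.

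C1qc had the largest difference of the 3 chains and the same sign under every alternative. It was 12.29, 12.22 and 12.43 in wildtype against 12.53, 12.36, 12.48 and 12.42 in knockout arrays. Wildtype replicates 1 and 2 lay below all knockout arrays, and wildtype replicate 3 lay above knockout replicates 2 and 4. The difference was 0.13 (SE 0.10, interval -0.09 to 0.35, limma adjusted p = 0.626). It was 0.19 without wildtype replicate 3 and 0.01 with only that wildtype array kept.

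The 3 chains varied little, and their profiles over the arrays were alike in part. The range over the 7 arrays was 0.17 for C1qa, 0.24 for C1qb and 0.31 for C1qc, against a median range of 0.48 over tested genes, and only 1.93% of tested genes had a smaller range than C1qa. After centring each gene on its mean over the 7 arrays, likeness was measured as the root mean square distance between profiles. C1qb stood 0.0504 from C1qa, and 0.42% of the other 10003 tested genes were closer to C1qa. C1qc stood 0.0592 from C1qa, with 1.15% of genes closer, and 0.0728 from C1qb, with 2.12% of genes closer to C1qb. All 3 chains were below their own mean on wildtype replicates 1 and 2 and above it on wildtype replicate 3 and knockout replicate 1. On the other 3 knockout arrays their signs differed, as on replicate 4 with 0.0048 for C1qa, -0.067 for C1qb and 0.031 for C1qc. The genes nearest the mean profile of the chains were Gask1b (0.0181), Slc25a5 (0.0187), an ADP/ATP carrier of mitochondria, and C1ql2 (0.0301), a synaptic protein with a C1q domain whose values were all under the 95th percentile of the negative controls. The distance takes in range as well as shape, so a flat gene stands close to another flat gene. With 7 arrays and profiles this flat, many genes come close, and the distances are a description.

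**Figure D2:**
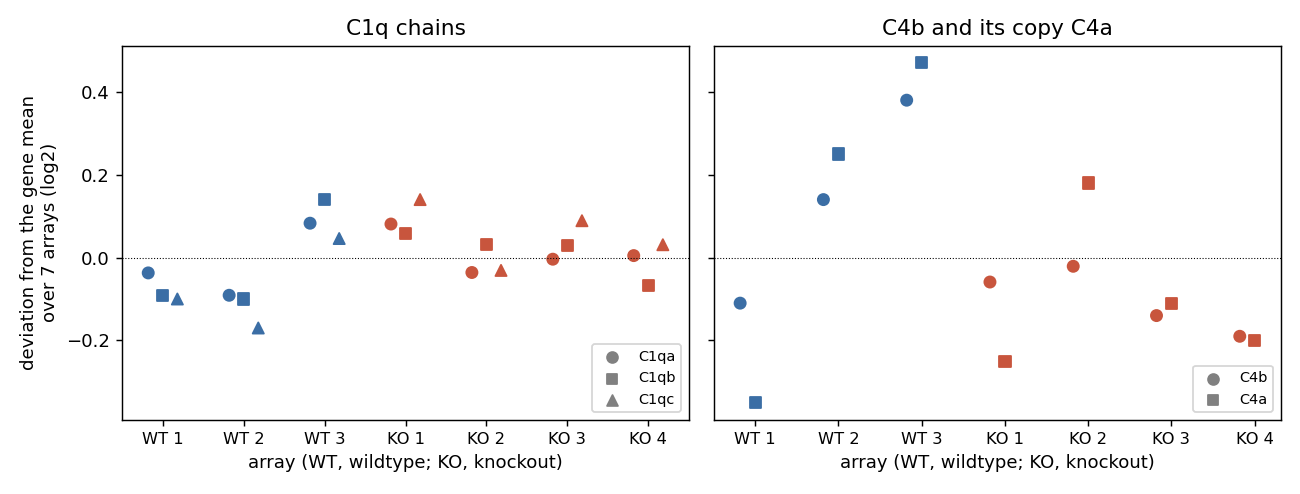
Deviation of each gene from its own mean over the 7 arrays (log2), for the C1q chains (left) and for C4b with its near-identical copy C4a (right). Each point is 1 array, blue for wildtype and red for knockout. The C1q chains stayed within -0.17 and 0.14, and C4b was highest on wildtype replicate 3, at 0.38. No C4a value was above the 95th percentile of the negative controls.

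C4b encodes complement C4, which is cleaved after C1q binds and joins the enzyme that cleaves C3. It was 9.82, 10.07 and 10.31 in wildtype against 9.87, 9.91, 9.79 and 9.74 in knockout arrays. Wildtype replicates 2 and 3 lay above every knockout array, and wildtype replicate 1 lay among them. The means were 10.07 ± 0.24 (SD, n = 3) and 9.83 ± 0.077 (SD, n = 4). The difference of -0.24 (SE 0.12, interval -0.51 to 0.04) did not pass (limma adjusted p = 0.48, unadjusted p = 0.0808). It was -0.12 without wildtype replicate 3, -0.36 without wildtype replicate 1, and -0.48 with wildtype replicate 3 as the only wildtype array.

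C4a, a near-identical copy close to C4b on chromosome 17, was 7.41, 8.01 and 8.23 in wildtype against 7.51, 7.94, 7.65 and 7.55 in knockout arrays, but no array lay above the 95th percentile of the negative controls, where C4a stood at percentiles from 72.3 to 85.2. Its values therefore say little about the C4a transcript. Deviations from the gene mean had the same sign for C4b and C4a on every array but knockout replicate 2. By distance, 6.96% of tested genes had profiles closer to C4b than C4a had. That distance takes in range, which was 0.82 for C4a and 0.57 for C4b. Probes for such copies may read both transcripts, so the division of signal between C4b and C4a is uncertain. Markers of border-associated macrophages, the macrophages of the meninges and perivascular spaces, had list means of 8.62, 8.77 and 9.03 in the wildtype arrays, in the order of C4b, and 8.69 to 8.85 in the knockout arrays. Their summed signal of 12.44, 12.43 and 12.72 in wildtype did not keep that order. Pf4 (9.44, 10.03 and 10.33), Ms4a7 (8.80, 9.06 and 10.08), Lyve1, F13a1, Cbr2, Clec4n and Folr2 rose over the wildtype replicates as C4b did. Mrc1 (10.17, 9.75 and 9.68) and Stab1 (10.62, 10.21 and 10.17) ran the other way, and Cd163 did neither. Only 3 markers of the list, Pf4, Mrc1 and Stab1, lay above the 95th percentile of the negative controls on every array. Ms4a7 did so on 4 arrays and Cbr2 on 3, and Lyve1, F13a1, Clec4n, Folr2 and Cd163 on none. Of the 9 tested markers 4 were above 0 and 5 below, with 0 called in limma and 0 at an unadjusted p under 0.05. Their part in the C4b values was not tested. No marker on the lists for astrocytes, oligodendrocytes, neurons, dendritic cells, B cells or natural killer and T cells lay above the 95th percentile of the negative controls on every array. In the dendritic cell list Ccr7 did so on 6 arrays and Batf3 on 5. The endothelial and mural list had 5 markers above it on every array, with a summed signal of 14.07, 14.13 and 13.32 in wildtype.

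Cfp encodes properdin, which steadies the C3-cleaving enzyme of the alternative pathway and is made by neutrophils and monocytes. It was 8.63, 8.61 and 8.60 in wildtype against 8.77, 9.02, 8.99 and 9.39 in the knockout arrays. Every knockout array lay above every wildtype array. The SD was 0.015 over the 3 wildtype arrays and 0.25 over the 4 knockout arrays, of which replicate 4 was the highest. The difference was 0.43 (SE 0.14, interval 0.12 to 0.73, limma unadjusted p = 0.0104) and did not pass correction (limma adjusted p = 0.336). The fit takes a common spread for both groups, which these SDs do not show, so the SE, interval and p are approximate. Non-overlap with knockout higher was seen in 7.10% of tested genes, and 3.99% had a larger difference in either direction.

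All Cfp values lay under the 95th percentile of the negative controls, at percentiles of those rows from 88.2 to 94.2, so the gene was not well above background on any array. The difference and interval above are therefore of array signal near background, and are not read as a fold of the Cfp transcript. Without knockout replicate 4 the difference was 0.31 (limma adjusted p = 0.242). Leaving out any other single array gave 0.42 to 0.52, and with array weights it was 0.37 (limma adjusted p = 0.22, the lowest over the alternatives). The tested genes with profiles closest to Cfp were Slc37a4 (0.0658), the glucose-6-phosphate transporter of the endoplasmic reticulum, Adpgk (0.0887), an ADP-dependent glucokinase, and B4galt4 (0.0915), a galactosyltransferase. Their limma adjusted p ran from 0.352 to 0.401, so they did not pass.

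Neutrophils and monocytes are also CD45 positive and CD11b positive, and their transcripts varied between arrays. Of 12 neutrophil markers, 11 were tested, and all 11 had differences above 0 with a median of 0.55, where 48.6% of tested genes lay above 0. In limma 1 had an unadjusted p under 0.05, where 11.9% of tested genes did, and 0 were called. The markers were read on the same arrays, so the 11 are not separate results. Of the 11, 4 lay above the 95th percentile of the negative controls on every array, S100a8, S100a9, Camp and Ngp. The summed signal of the list was 13.79, 14.47 and 13.69 in wildtype against 13.66, 14.26, 14.76 and 15.23 in knockout arrays. Knockout replicate 4 was highest both for these markers and for Cfp, and knockout replicate 1 was the lowest knockout array for both. Wildtype replicate 2 lay above knockout replicates 1 and 2 in neutrophil signal, and its Cfp value of 8.61 was below their 8.77 and 9.02.

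The 9 monocyte markers with a row had a summed signal of 12.97 to 13.29 in wildtype against 13.09 to 13.71 in knockout arrays, highest in knockout replicate 4. The brightest gene of the sum was Nr4a1, at 12.16 to 12.21 in wildtype against 11.99 to 12.21 in knockout arrays. Of 7 tested, 3 were above 0 and 4 below, and in limma Plac8 and Chil3, both higher in knockout, had an unadjusted p under 0.05. Plac8 lay above the 95th percentile of the negative controls on 5 arrays and Chil3 on 1. Only Fn1 and Nr4a1 did so on every array, and they differed by -0.32 and -0.066. The part of these cells in the Cfp values was not tested, and in sorted bulk RNA more cells of a type cannot be told apart from more RNA per cell. Cfp is on the X chromosome. The Y-linked genes Kdm5d, Eif2s3y and Uty were dimmer, at percentiles from 13.4 to 42.8 among the negative controls, on all arrays of both genotypes.

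**Figure D3:**
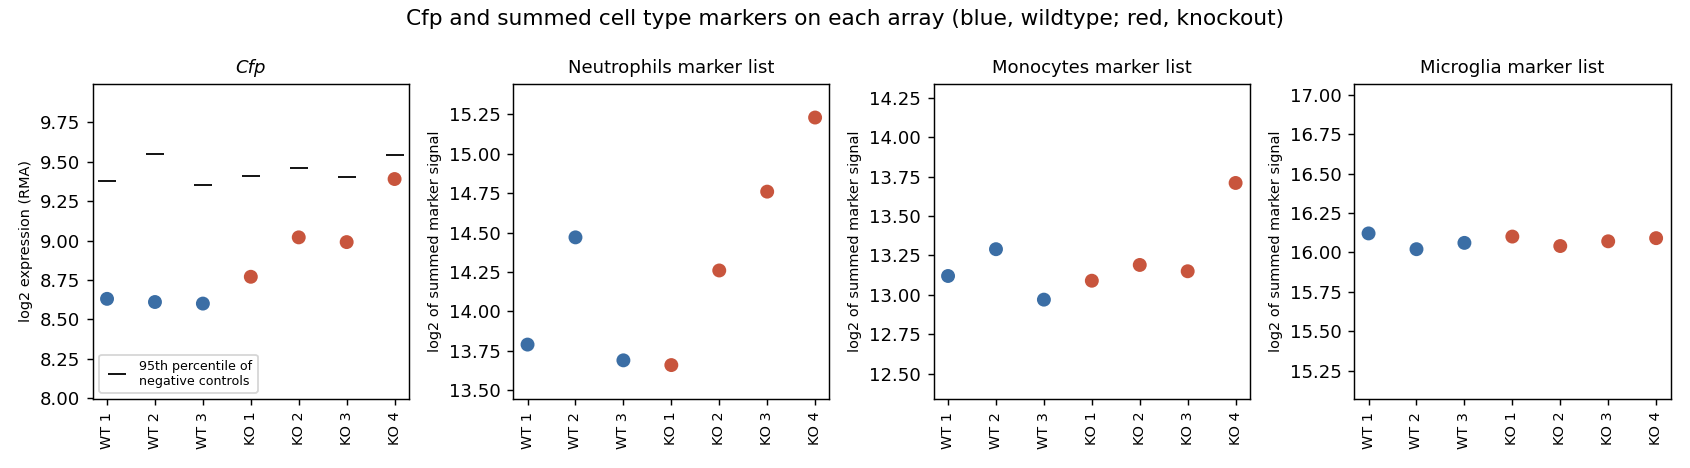
Cfp (log2 expression, far left) and the log2 of the summed signal of neutrophil, monocyte and microglial markers on each of the 7 arrays, blue for wildtype and red for knockout. Dashes mark each array's 95th percentile of negative controls. Knockout replicate 4 was highest for Cfp (9.39) and for neutrophil (15.23) and monocyte (13.71) markers, while the microglial sum stayed between 16.02 and 16.12.

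The receptor for C3a was among the steadiest genes measured. C3ar1 was 12.62, 12.62 and 12.60 in wildtype against 12.46, 12.59, 12.63 and 12.60 in knockout arrays. Knockout replicate 1 was the lowest array and the other knockout arrays lay at the wildtype level. The difference was -0.044 (SE 0.093, interval -0.25 to 0.16, limma adjusted p = 0.884), a linear interval of 0.841 to 1.12 times wildtype. It was -0.0071 without knockout replicate 1 and -0.086 after repeated quantile normalization. Its range over the arrays was 0.17, and 1.8% of tested genes had a smaller one.

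C5ar1 encodes the signalling receptor for C5a. It was 9.32, 9.38 and 9.30 in wildtype against 9.26, 9.14, 9.40 and 9.43 in knockout arrays. The wildtype arrays lay inside the knockout range. The difference was -0.026 (SE 0.10, interval -0.26 to 0.20, limma adjusted p = 0.943). It was 0.0078 after centring on array medians, so it had no settled sign, and its values were not above the 95th percentile of the negative controls on any array. C5ar2, its neighbour on chromosome 7, which encodes a second C5a receptor, differed by 0.10 (SE 0.15, limma adjusted p = 0.845).

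Itgam encodes CD11b, the protein used for the sort. It was 12.62, 12.51 and 12.39 in wildtype against 12.21, 12.40, 12.26 and 12.54 in knockout arrays. The groups overlapped, with knockout replicate 4 above wildtype replicates 2 and 3. The difference was -0.15 (SE 0.11, interval -0.40 to 0.10, limma adjusted p = 0.619). It was -0.21 without wildtype replicate 3 or without knockout replicate 4, and -0.037 with wildtype replicate 3 as the only wildtype array. Itgax, the next gene on the chromosome and the alpha subunit of complement receptor 4, differed by -0.071 (SE 0.14, limma adjusted p = 0.875). Itgb2, the beta subunit that both pair with, differed by 0.048 (SE 0.11, limma adjusted p = 0.901). In the same integrin family, Itgal, the alpha subunit of LFA-1, was 8.74 in wildtype and 9.22 in knockout on average, a difference of 0.49 (SE 0.21) that did not pass (limma adjusted p = 0.407). It was highest in knockout replicate 4, at 9.75, the only array where it lay above the 95th percentile of the negative controls.

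The rest of the pathway was likewise without called genes. Over 5 lists by role, 59 genes were listed, 54 had a row and 22 were tested, the 8 above included. In limma 0 of the 22 were called, 1 (Cfp) had an unadjusted p under 0.05, and 9 lay above 0 and 13 below, with a median of -0.037. Over all tested genes 48.6% lay above 0.

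Among classical and lectin pathway genes, 7 of 18 were tested, with 4 above 0 and 3 below. Masp1, a protease gene of the lectin pathway, was above the 95th percentile of the negative controls on every array and differed by 0.065 (SE 0.11). Mbl2, a mannose-binding lectin, was above that percentile on no array and differed by -0.072 (SE 0.11). The limma adjusted p was 0.856 and 0.846. Factor B, the protease of the alternative pathway, was under the filter on low values, with Cfb at 7.25 to 7.73 in wildtype against 6.82 to 7.87 in knockout arrays. Of 7 terminal components 1 was tested, C8g, which differed by -0.16 (SE 0.13, limma adjusted p = 0.633).

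Among complement receptors 6 of 8 were tested, 2 above 0 and 4 below. Of 22 regulators listed, 7 were tested, 2 above 0 and 5 below, with a median of -0.17. Only 3 of them, Cr1l, C1qbp and Vtn, lay above the 95th percentile of the negative controls on every array. Cr1l, the brightest of these, differed by 0.089 (SE 0.10, limma adjusted p = 0.757). Clu, the secreted chaperone clusterin that blocks the terminal complex, was 9.73, 9.50 and 9.44 in wildtype against 9.60, 9.20, 9.25 and 8.81 in knockout arrays. The Clu difference was -0.35 (SE 0.17, limma adjusted p = 0.449), and only 3 of the 7 arrays were above the 95th percentile of the negative controls. Vtn, vitronectin, differed by -0.37 (SE 0.23, limma adjusted p = 0.541), with wildtype replicates 1 and 2 at 10.37 and 10.54 and wildtype replicate 3 at 9.48. Vtn is also in the endothelial and mural marker list. That list had 11 tested genes, Vtn among them, and all 11 lay below 0, where 48.6% of tested genes lay above 0. The list median of -0.37 is the value of Vtn itself. In limma 4 had an unadjusted p under 0.05, where 11.9% of tested genes did, and 0 were called. The summed signal, with Vtn in the sum, was 14.07, 14.13 and 13.32 in wildtype against 13.48 to 13.62 in knockout arrays. The part of endothelial and mural cells in the Vtn values was not tested. Csmd1 differed by -0.17 (SE 0.11, limma adjusted p = 0.575) with no overlap of the groups and with no array above the 95th percentile of the negative controls. C1qbp, a mitochondrial protein first known for binding C1q, differed by 0.11 (SE 0.10, limma adjusted p = 0.72). Of 13 other genes with C1q domains, 3 were tested and 0 called in limma, with 0 at an unadjusted p under 0.05. C1ql1 and C1qtnf2 differed by -0.11 and -0.10, and neither was above the 95th percentile of the negative controls on any array.

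**Figure D4:**
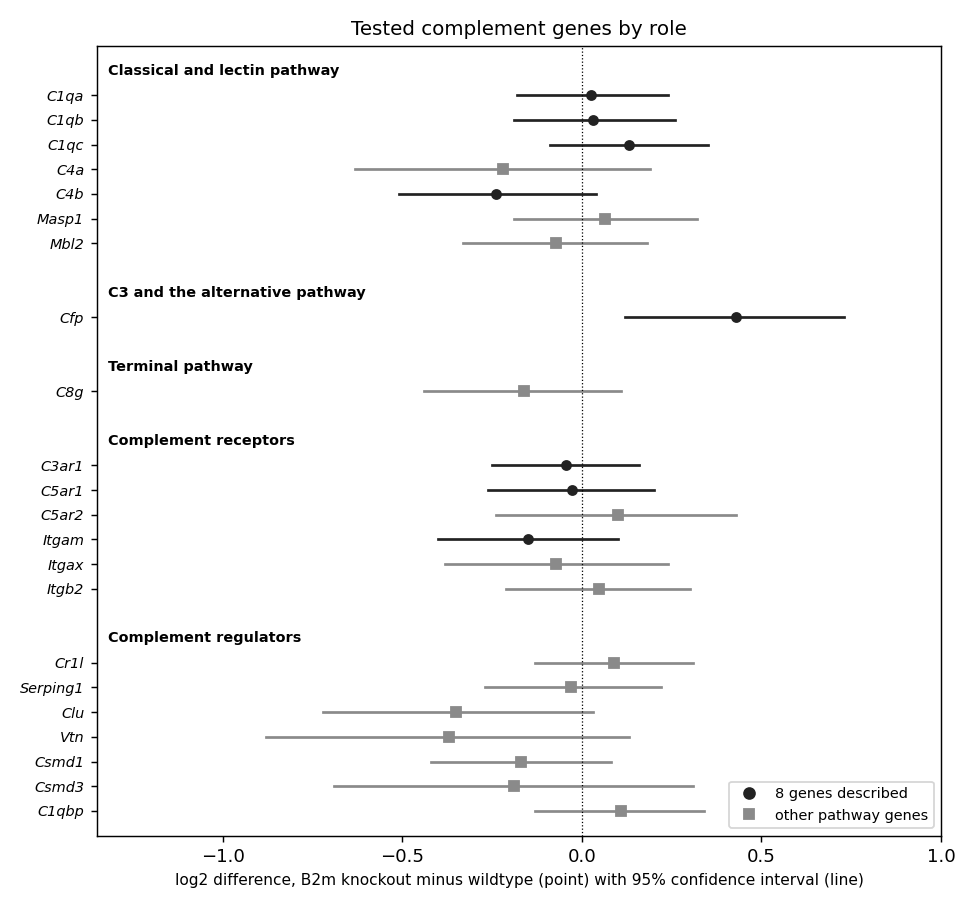
Difference between genotypes (log2, knockout minus wildtype) with its 95% confidence interval for the 22 tested complement genes, grouped by role. Circles are the 8 genes described here and squares the other pathway genes. The interval of Cfp, 0.12 to 0.73, is the only one drawn that lies wholly on 1 side of 0, and Cfp did not pass correction over all genes.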

How the data were processed

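The authors deposited log2 values for each probe set. Per the submitters' processing notes they were made with RMA (background correction, normalization between arrays and probe summary) in Affymetrix Expression Console 1.1. The array's genome build was not given in the sources used here. In all, 28846 rows were read, with array medians from 7.68 to 7.75, and were not normalized further. A probe annotation named 19572 rows, and Entrez identifiers matched each of them to a gene table of GRCm38.p6. Where a gene had several probe sets, the brightest on average was used. A gene was tested when above its array's median over named genes on at least 3 arrays, leaving 10004 genes. Genotypes were compared with lmFit and eBayes in limma 3.58.1 under R 4.3.3, with Benjamini-Hochberg adjustment over all tested genes and calls at an adjusted p under 0.05. The fit was also run on simulated data with independent values and equal spread in both groups. Such data cannot show how it deals with unequal spread between groups. Rows with a neg tag in their identifier were read as negative controls. Summed marker signal is log2 of the sum of linear values over a list's genes with a row. Sequences came from RefSeq.

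Genes named outside the 8 are called genes or, from each list, the 4 tested members of lowest unadjusted p, the 3 closest profiles to Cfp and to the C1q chains (predicted genes and RIKEN clones left out), B2m and marker genes. Cfb, Cr1l and the examples of microglial, neutrophil, monocyte, border-associated macrophage, dendritic cell and Y-linked markers were picked outside that rule. Members and lists were chosen with earlier results of these data known. Replicate numbers follow deposit order. The number of arrays limits the precision, and no batch, sex or litter was labelled. The alternatives were 15 planned and 2 chosen after seeing the data.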

Additional observations from a re-analysis of the deposited data

Results flagged for a closer look

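Of 21 sets of 4 knockout values examined (the 8 complement genes, B2m and 12 marker lists), 1 held an array set apart from the other 3 by Dixon's criterion. The mean of the border-associated macrophage markers was 8.69 in knockout replicate 2, against 8.83 to 8.85 in the other knockout arrays. Chance sets apart about 1 in 20 such groups.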

How the results depend on the processing

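Across all 17 alternatives, 0 of the 8 complement genes and 0 of the tested pathway genes were called in limma. The count over all genes was 5, and leaving out 1 array gave 4 to 26, the highest without wildtype replicate 3. C1qc, C4b, C3ar1, Itgam and Cfp kept their sign in every alternative run. With the stricter filter Cfp was not tested. The signs of C1qa, C1qb and C5ar1, all of small size and not called, turned in some. Leaving out 1 array gave C1qa -0.012 to 0.075, C1qb -0.011 to 0.11 and C5ar1 -0.067 to 0.029. C1qa was -0.012 without wildtype replicate 2 and -0.071 with wildtype replicates 1 and 2 both left out. C1qb was -0.0055 without wildtype replicate 1, -0.011 without wildtype replicate 2, -0.13 without both, and -0.015 after repeated quantile normalization. C5ar1 was 0.029 without knockout replicate 2, 0.0035 without wildtype replicates 1 and 2, and 0.0078 after centring on array medians. The cause was not tested. Leaving out both wildtype arrays left 1, assumed to vary like the knockout arrays. No paired analysis was possible because the labels carry no replicate numbers. Cfp and C5ar1 were limited by signal near that of the negative controls.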
